A study of Mus musculus with 6 samples.

Results

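The genes described here encode the machinery of mitosis: the kinases and cyclins that start it, the condensins and cohesion regulators that shape chromosomes, the kinetochore, the spindle, the checkpoint that guards it and the proteins that split the cell. The list names 55 genes, and a gene was measured where a probe set, the group of short probes that reads 1 transcript on the array, was annotated to that gene alone under an old or a current name. This left 54 of 18193 genes measured on the arrays. Ccnb1 had no probe set under the rule and was not analysed here. Where a gene had several probe sets, the brightest over all arrays stood for it. The arrays read RNA of whole mammary glands from virgin female FVB/N mice at 4 months of age. There were 3 wild-type (WT) glands and 3 glands from caveolin-3 knockout (Cav-3KO) mice, which lack the caveola coat protein of muscle cells. The labels name no treatment. The oestrous stage, the way the gene was disrupted and the number of mice behind the 6 glands are not given in the sources used here. All p-values below therefore measure the spread between these samples, which may in part be technical.

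A dividing cell builds most of these transcripts only in the G2 and M phases and degrades many of their proteins when mitosis ends, so their level in a tissue follows the number of cells in division. In the virgin mammary gland division is sparse and follows the hormonal cycle, whereas pregnancy brings a wave of epithelial division before milk is made. The genes share a mode of control: the DREAM complex silences them in resting cells, and B-MYB and FOXM1 activate them in G2, through a promoter element called the cell cycle genes homology region (CHR), often beside CCAAT boxes bound by NF-Y.

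All values are on the log2 scale, so a difference of 1 is a 2-fold change, and levels of different genes cannot be set against each other on an array. Array medians lay between 5.77 and 5.8. Cav3 itself was dim, with 4.79, 5.02 and 4.74 on wild-type arrays 1 to 3 and 4.76, 4.83 and 4.72 on knockout arrays 1 to 3 (difference −0.08 ± 0.10, adjusted p = 0.679), so the genotypes rest on their labels alone. In bulk tissue, fewer cells of a type and less RNA per cell cannot be told apart. The lowest wild-type mean of any measured member, 4.08, lay above the means of 9 Y-linked probe sets (2.04 to 3.25), taken as background because the mice were female. Yet Cav3 on the knockout arrays lay above the wild-type means of Kif20a (4.08), Nuf2 (4.11), Ect2 (4.43) and Ncapg (4.58). For these dim genes a reading above the Y-linked sets does not show that they were detected in wild type.

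Mitosis genes were higher in the knockout glands in 53 of 54 members by sign, with a median log2 difference of 1.33 (2.52-fold). The median over all genes was −0.01, and 48.4% of them were above 0. Past the threshold of 0.05 on the adjusted p (limma, Benjamini-Hochberg over all probe sets), 13 members rose and 0 fell, against 7.65% of all genes that rose and 8.51% that fell. The 13 were Stmn1, Spc25, Ndc80, Cdca8, Smc2, Ect2, Ncaph, Tacc3, Cdca5, Ncapg, Mki67, Incenp and Cdk1, with rises of 0.88 to 1.84. At an unadjusted p under 0.05 the count was 48, against 16.3% of all genes, and at an adjusted p under 0.10 it was 35, against 11.8%. The 3 knockout arrays all lay above the 3 wild-type arrays for 27 members, and for 18.5% of all genes. Averaged over the 54 members, wild-type arrays 1 to 3 read 6.93, 6.15 and 6.64, and knockout arrays 1 to 3 read 7.87, 7.0 and 8.58. Wild type thus read 6.57 ± 0.39 (SD, n = 3) and knockout 7.82 ± 0.79, and the lowest knockout array lay just above the highest wild-type array.

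The glands differed from each other more than the genotype means show. Knockout 3 was the highest of the 6 arrays for 52 of 54 members, whereas it was the highest for 20.2% of all genes. Knockout 2 was the lowest knockout array for all 54, against 38.2% of all genes. The median member stood 2.57-fold above the wild-type mean in knockout 1, 1.30-fold in knockout 2 and 4.49-fold in knockout 3. Knockout 2 was below wild-type 1 for 26 members (48.1%), near the 52.0% of all genes, and above all 3 wild-type arrays for 27, against 34.2% of all genes. Wild-type arrays were ordered too: wild-type 2 was the lowest of the 6 arrays for 49 members (19.0% of all genes), and 49 ran in the order wild-type 1, wild-type 3, wild-type 2 (18.2%). The members moved almost as a block over the 6 arrays, with a median correlation of 0.966 over 1431 pairs, and 0.949 after each genotype's mean was taken out. Each of 50 members correlated above 0.9 with the mean of the others, and the exceptions were Cdc25b (0.460), Bub3 (0.820), Plk4 (0.842) and Foxm1 (0.876). These correlations share the same 6 arrays and describe them, with no test.

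**Figure D1:**
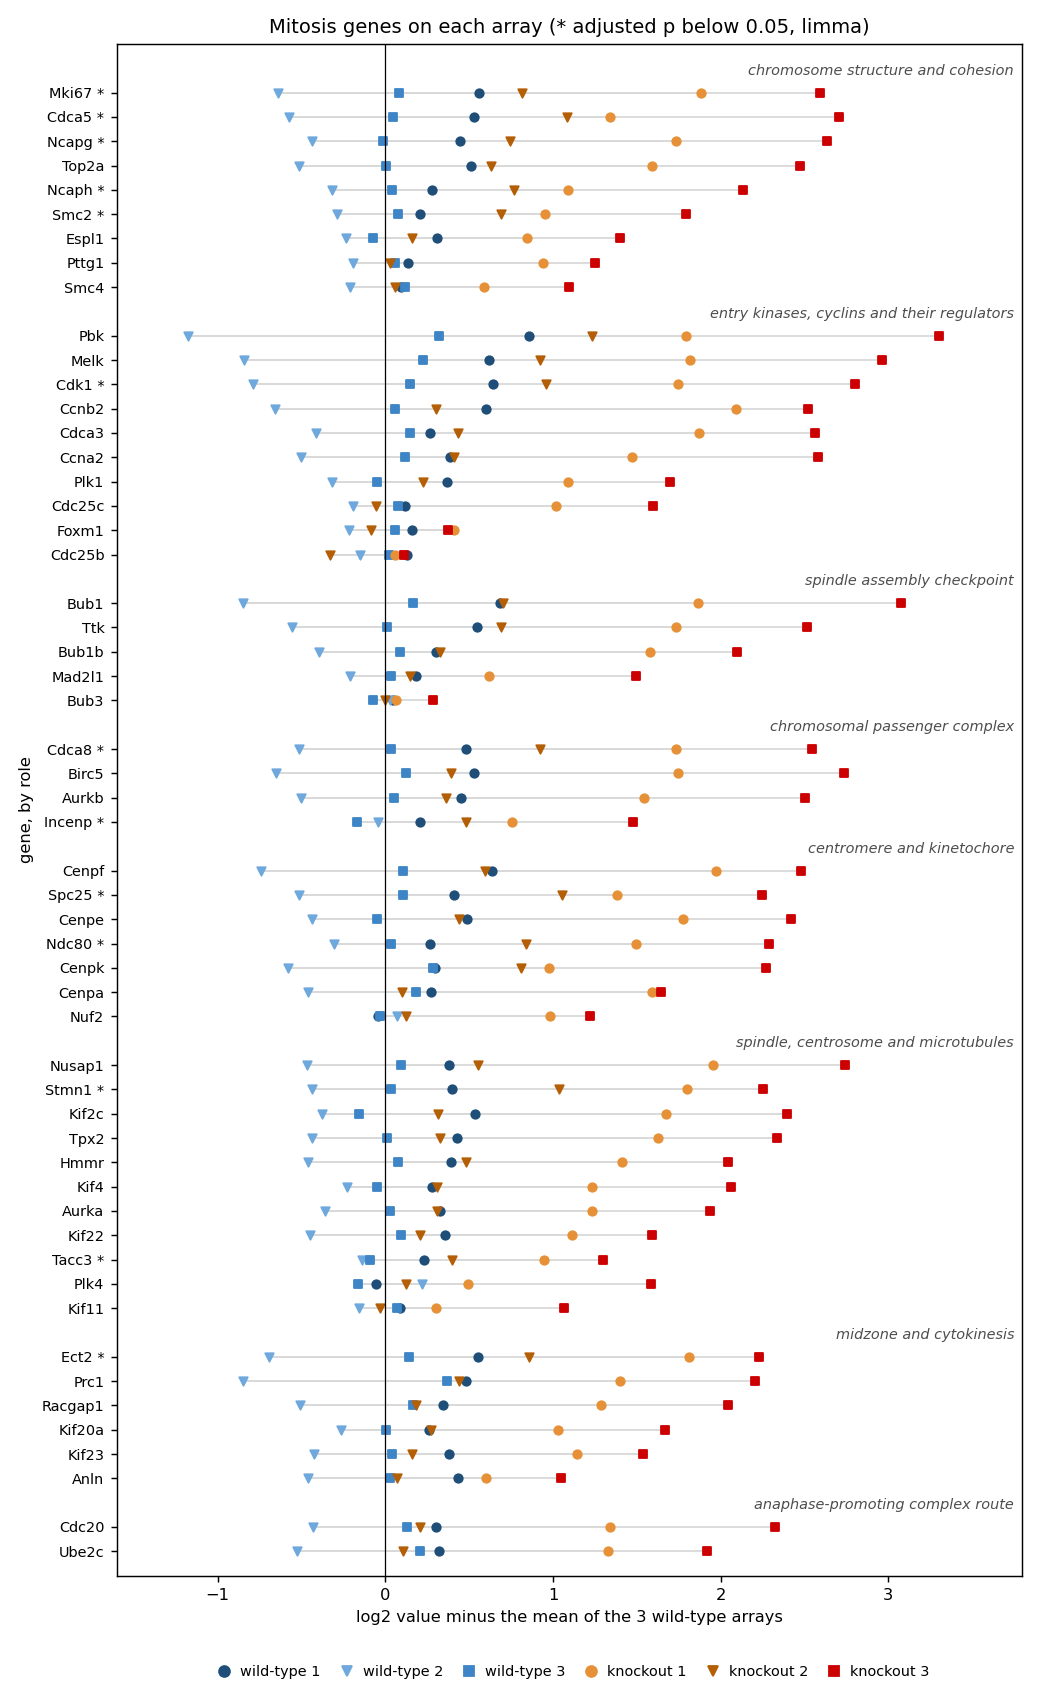
Each row is 1 of the 54 measured mitosis genes, grouped by role and sorted by difference, and each point is 1 array, as its log2 value minus the mean of the 3 wild-type arrays; asterisks mark the 13 genes with an adjusted p below 0.05. Knockout 3 (red squares) is the highest point for 52 genes, and knockout 2 (brown triangles) lies below wild-type 1 (dark blue circles) for 26.

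The number of members past the threshold depended on single glands. Without knockout 2 it was 48 of 54, against 9.44% of all genes in that fit, and 53 members then had both knockout arrays above all wild-type arrays (25.2% of all genes). The median difference was 1.76 without knockout 2 and 0.93 without knockout 3. Without wild-type 1, 2 or 3 the count was 5, 1 and 0, against 4.64%, 4.01% and 3.63% of all genes, and without knockout 1 or 3 it was 2 and 4, against 6.77% and 3.46%. The members' share was thus below that of all genes without wild-type 2, wild-type 3 or knockout 1. Without wild-type 3 the adjusted p of the 13 members lay between 0.0515 and 0.146. Stmn1 kept its call in 5 of the 6 fits that each left out 1 array, Ndc80 and Spc25 in 3, Cdca8, Ect2, Ncaph and Smc2 in 2, and the other 6 only without knockout 2. The count was also 5 with a variance prior that follows intensity (7.32% of all genes), 5 with each gene's probe sets averaged (6.83%) and 1, Stmn1, with the skeletal muscle mean as a covariate (5.66%), while array weights gave 37 (9.51%). No member fell in any of these fits.

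**Figure D2:**
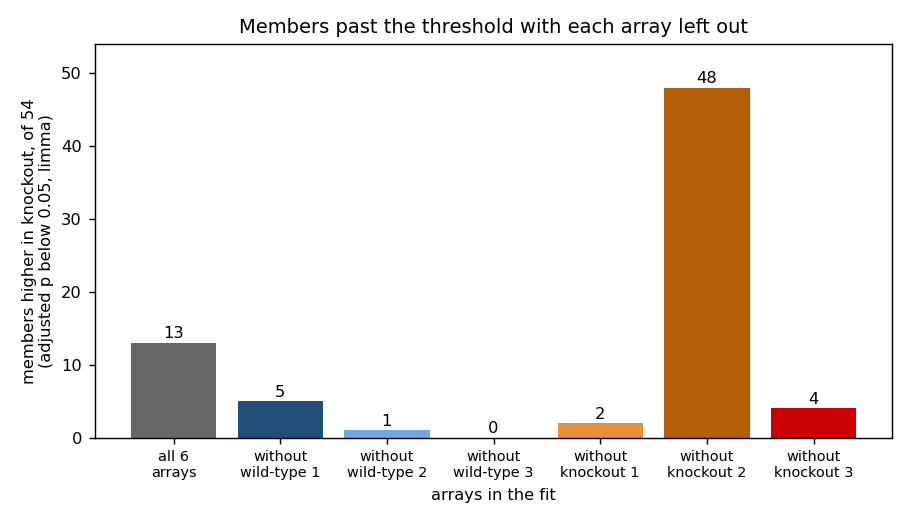
Bars give the number of the 54 members that were higher in knockout at an adjusted p below 0.05, in the fit of all 6 arrays and in the 6 fits that each left out 1 array. The count runs from 0 without wild-type 3 to 48 without knockout 2, beside 13 with all arrays.

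Most member promoters that were searched share a sequence feature that the choice of members did not use directly. It is the CHR, named above as the control element of such genes, so its frequency here is no independent finding. RefSeq windows on GRCm38.p6, from 250 bases before to 50 after the annotated start, were found for 44 of the 54 measured members. Both strands were searched for the CHR words TTTGAA and TTCGAA and for CCAAT. Shares of all genes in this paragraph refer to the 27025 genes with a window, measured on the arrays or not. A CHR word stood in 33 of the 44 windows (75%), against 19.4% of these genes, and CCAAT stood in 31 (70.5%), against 37.9%. Both stood together in 29 (65.9%), against 7.7%. The word lay within 60 bases of the start in 31 of the 33 members, a share of 93.9%, while 31.1% of all genes with a CHR word had it that near. An E2F word, which was TTTGGCG or else TTTCCCG or else TTTCGCG or else TTTGCCG, stood in 7 of the 44 (15.9%), against 6.85%. Windows of members held a median of 58.3% G and C, against 52.7% for all genes. A match describes the letters and does not show that a factor binds there.

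**Figure D3:**
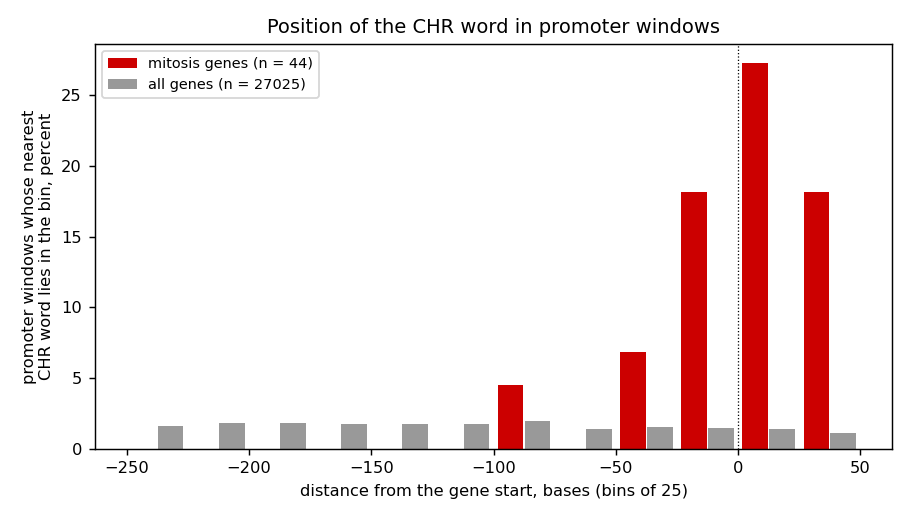
Bars give the percent of promoter windows whose CHR word nearest the gene start lies in each bin of 25 bases, with the start at 0. Red is 44 mitosis genes, and grey is all 27025 genes with a window, measured on the arrays or not. Member windows pile up around the start, where 31 of the 33 that hold the word have it within 60 bases, and the grey bars stay nearly level.

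The windows below are those of 5 members that rose and carry both elements, and of 2 that rose and carry neither, so that the layout can be seen. Letters in capitals mark CHR words and CCAAT boxes on either strand, so TTCAAA is TTTGAA and ATTGG is CCAAT read from the other strand. Positions are chr2:69206164-69206463 on the minus strand for Spc25, chr4:124936868-124937167 on the minus strand for Cdca8, chr4:52438971-52439270 on the plus strand for Smc2, chr3:27153829-27154128 on the minus strand for Ect2, chr7:135716330-135716629 on the minus strand for Mki67, chr2:127133905-127134204 on the minus strand for Ncaph and chr5:33657878-33658177 on the plus strand for Tacc3.
Spc25: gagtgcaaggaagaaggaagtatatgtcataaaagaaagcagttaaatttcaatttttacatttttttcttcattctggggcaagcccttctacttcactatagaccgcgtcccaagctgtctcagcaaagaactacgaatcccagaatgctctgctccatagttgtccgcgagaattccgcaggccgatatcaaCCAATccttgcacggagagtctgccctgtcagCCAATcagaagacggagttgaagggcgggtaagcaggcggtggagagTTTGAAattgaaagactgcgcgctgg
Cdca8: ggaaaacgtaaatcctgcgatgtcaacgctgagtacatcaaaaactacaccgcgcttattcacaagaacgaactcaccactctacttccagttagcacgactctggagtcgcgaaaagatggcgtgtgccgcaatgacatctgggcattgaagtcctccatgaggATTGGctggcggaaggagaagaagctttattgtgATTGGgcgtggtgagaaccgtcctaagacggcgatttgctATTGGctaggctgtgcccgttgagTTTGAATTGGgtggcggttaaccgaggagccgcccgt
Smc2: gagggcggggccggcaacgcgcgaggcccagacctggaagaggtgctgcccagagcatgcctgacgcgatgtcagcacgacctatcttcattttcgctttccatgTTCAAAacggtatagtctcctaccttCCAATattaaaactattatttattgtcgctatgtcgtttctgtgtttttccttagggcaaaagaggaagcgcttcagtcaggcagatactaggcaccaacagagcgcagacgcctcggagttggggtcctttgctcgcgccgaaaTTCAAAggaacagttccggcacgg
Ect2: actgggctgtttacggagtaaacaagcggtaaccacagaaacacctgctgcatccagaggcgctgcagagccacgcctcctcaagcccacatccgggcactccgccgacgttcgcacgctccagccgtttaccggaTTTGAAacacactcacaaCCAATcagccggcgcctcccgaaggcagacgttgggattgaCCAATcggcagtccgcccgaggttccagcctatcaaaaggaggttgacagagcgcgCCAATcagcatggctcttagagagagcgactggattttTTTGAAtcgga
Mki67: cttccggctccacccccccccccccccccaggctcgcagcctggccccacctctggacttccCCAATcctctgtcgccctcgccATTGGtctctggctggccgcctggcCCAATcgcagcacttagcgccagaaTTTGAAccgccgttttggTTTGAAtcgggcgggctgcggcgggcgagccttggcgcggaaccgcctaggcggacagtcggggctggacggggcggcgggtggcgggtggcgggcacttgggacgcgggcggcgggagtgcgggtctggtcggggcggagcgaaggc
Ncaph: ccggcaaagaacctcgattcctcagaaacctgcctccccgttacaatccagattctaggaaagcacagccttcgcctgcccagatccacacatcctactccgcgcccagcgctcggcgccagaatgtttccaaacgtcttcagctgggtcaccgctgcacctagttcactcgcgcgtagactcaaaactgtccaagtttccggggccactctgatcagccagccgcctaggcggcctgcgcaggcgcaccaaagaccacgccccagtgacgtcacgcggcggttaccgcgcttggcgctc
Tacc3: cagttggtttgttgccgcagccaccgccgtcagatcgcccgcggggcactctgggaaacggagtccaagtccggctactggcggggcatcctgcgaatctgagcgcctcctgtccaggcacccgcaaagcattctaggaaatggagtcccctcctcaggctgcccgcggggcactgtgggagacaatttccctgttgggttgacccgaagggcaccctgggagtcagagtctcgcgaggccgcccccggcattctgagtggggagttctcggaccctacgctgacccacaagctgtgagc
The word closest to the start has its centre at position 27 in Spc25, 16 in Cdca8, 29 in Smc2 and 42 in Ect2, counted from 0 at the start, and at −95 in Mki67, which has a pair of CHR words 18 bases apart. In Cdca8 the CHR word runs into a CCAAT box on the other strand. The 33 members with a CHR word had a median log2 difference of 1.33 and the 11 without it 1.33 as well. Cdc25b and Bub3, the members with the smallest differences, carry both elements.

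Genes of chromosome structure and cohesion had 5 of 9 members past the threshold, against 7.65% of all genes that rose, and a median difference of 1.33. The entry group described next had 1 of 10 and a larger median, 1.55, so the calls do not rank the role groups. Mki67, which coats mitotic chromosomes and is the standard marker of dividing cells, read 8.46, 7.26 and 7.98 on wild-type arrays 1 to 3 and 9.78, 8.71 and 10.49 on knockout arrays 1 to 3. Further array values follow this order. All knockout arrays were above all wild-type arrays, and Mki67 rose by 1.76 ± 0.45 (SE), 3.40-fold (adjusted p = 0.0425, and 0.0538 to 0.121 when any array but knockout 2 was left out). Top2a, the topoisomerase that untangles sister chromosomes, gave 8.48, 7.45 and 7.97 against 9.56, 8.60 and 10.44, a difference of 1.56 ± 0.44 that missed the threshold (adjusted p = 0.0575). Condensin winds chromosomes into compact rods, and its subunit Smc2 read 7.89, 7.40 and 7.76 in wild type and 8.64, 8.37 and 9.47 in knockout. Smc2 rose by 1.14 ± 0.27 (adjusted p = 0.0325), a call kept only without knockout 2 or 3. The condensin I subunit Ncaph, at 7.32, 6.72 and 7.08 against 8.13, 7.81 and 9.17, rose by 1.33 ± 0.33 (adjusted p = 0.0375), kept without the same arrays. Ncapg, its partner in condensin I, rose by 1.70 ± 0.44 (adjusted p = 0.0424), and Cdca5, the cohesin protector sororin, by 1.71 ± 0.43 (adjusted p = 0.0407), both kept only without knockout 2. Smc4, the other core condensin subunit, lay at 9.84, 9.54 and 9.87 against 10.34, 9.81 and 10.84, so that knockout 2 fell inside the wild-type range (difference 0.58 ± 0.24, adjusted p = 0.162). Espl1, the separase that cuts cohesin, and Pttg1, the securin that holds it back, differed by 0.80 ± 0.29 and 0.74 ± 0.28 (adjusted p = 0.117 and 0.135).

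Entry into mitosis is driven by CDK1 bound to cyclins A and B. In this group 1 of 10 measured members passed, beside 7.65% of all genes that rose. Cdk1, the kinase itself, read 7.75, 6.32 and 7.26 in wild type and 8.86, 8.07 and 9.91 in knockout, without overlap. It rose by 1.84 ± 0.49, 3.57-fold (adjusted p = 0.0489), and kept the call only without knockout 2. Its cyclins Ccna2 and Ccnb2 differed by 1.49 ± 0.49 and 1.64 ± 0.56 (adjusted p = 0.0921 and 0.0986). Melk, a kinase of dividing progenitors, gave 6.18, 4.72 and 5.79 against 7.38, 6.49 and 8.53, a difference of 1.90 ± 0.53 (adjusted p = 0.0554). Pbk, a mitotic kinase, had the largest difference of all 54 members, 2.11 ± 0.62, 4.32-fold, and still missed the threshold (adjusted p = 0.0664). Cdca3, which helps entry by clearing WEE1, a kinase that inhibits CDK1, differed by 1.62 ± 0.48 and Plk1, the polo kinase, by 1.01 ± 0.35 (adjusted p = 0.0660 and 0.102). Of the CDC25 phosphatases that release CDK1 from inhibition, Cdc25c differed by 0.85 ± 0.36 (adjusted p = 0.173). Cdc25b was the only member below 0, with 7.60, 7.32 and 7.49 in wild type and 7.53, 7.14 and 7.58 in knockout, and its groups overlapped, although knockout 2 lay below every wild-type array (difference −0.05 ± 0.14, adjusted p = 0.851). Foxm1, the activator of many genes of this list, differed by 0.23 ± 0.16 on its brightest probe set (adjusted p = 0.399).

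None of 5 genes of the spindle assembly checkpoint, which delays anaphase until every kinetochore is attached, passed with limma (7.65% of all genes rose). There 4 were higher at an unadjusted p under 0.05, against 16.3% of all genes. Ttk, the kinase that starts the checkpoint, read 5.91, 4.80 and 5.37 in wild type and 7.10, 6.05 and 7.88 in knockout, a difference of 1.65 ± 0.45 just beyond the threshold (adjusted p = 0.0510). Bub1b, part of the complex that blocks the anaphase-promoting complex, gave 6.97, 6.28 and 6.76 against 8.25, 6.99 and 8.76 (difference 1.33 ± 0.41, adjusted p = 0.0746), and its knockout 2 and wild-type 1 values nearly met. Bub1, the kinetochore kinase, differed by 1.88 ± 0.59 and Mad2l1, the CDC20 inhibitor, by 0.75 ± 0.30 (adjusted p = 0.0790 and 0.153). Bub3, which anchors both BUB proteins, stood apart with 10.79, 10.77 and 10.67 in wild type and 10.81, 10.75 and 11.03 in knockout, overlapping values that differed by 0.11 ± 0.10 (adjusted p = 0.532). Without probe sets that can match several transcripts its difference was −0.06.

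Of the 4 chromosomal passenger genes, whose complex corrects faulty attachments and later marks the cleavage plane, 2 passed (7.65% of all genes rose). Cdca8, which encodes borealin, read 8.12, 7.13 and 7.67 in wild type and 9.38, 8.56 and 10.19 in knockout. It rose by 1.73 ± 0.40, 3.33-fold (adjusted p = 0.0299), and kept the call only without wild-type 1 or knockout 2. Incenp, which activates the kinase of the complex, read 8.77, 8.52 and 8.40 against 9.32, 9.05 and 10.04 and rose by 0.90 ± 0.24 (adjusted p = 0.0473), kept only without knockout 2. The kinase gene Aurkb differed by 1.47 ± 0.49 (adjusted p = 0.0944). Birc5, survivin, gave 6.74, 5.56 and 6.33 against 7.95, 6.60 and 8.94, a difference of 1.62 ± 0.55 (adjusted p = 0.0982), with knockout 2 below wild-type 1.

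The NDC80 complex is the kinetochore's grip on microtubules, and of its members on the list Spc25 and Ndc80 passed. Spc25 read 6.04, 5.11 and 5.73 in wild type and 7.01, 6.68 and 7.88 in knockout, and rose by 1.56 ± 0.33, 2.95-fold (adjusted p = 0.0222). Ndc80 read 5.67, 5.09 and 5.43 against 6.89, 6.23 and 7.69 and rose by 1.54 ± 0.33 (adjusted p = 0.0236). In both, knockout 2 lay clearly above the wild-type arrays. Leaving out wild-type array 2 or 3 ended both calls (adjusted p = 0.0631 and 0.0647 for Spc25, 0.0768 and 0.0729 for Ndc80). So did leaving out knockout 3 for Spc25 (0.0536) and knockout 1 for Ndc80 (0.0568). Nuf2, the partner of Ndc80, differed by 0.77 ± 0.25 (adjusted p = 0.0878). Cenpa, the histone that defines the centromere, gave 7.31, 6.57 and 7.22 against 8.62, 7.13 and 8.68, with knockout 2 inside the wild-type range (difference 1.11, adjusted p = 0.119). The outer kinetochore genes Cenpe, a motor, and Cenpf differed by 1.54 ± 0.47 and 1.68 ± 0.50, and Cenpk of the inner kinetochore by 1.35 ± 0.40 (adjusted p = 0.0704, 0.0671 and 0.0648).

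Among 11 genes of the spindle, centrosome and microtubules 2 passed (7.65% of all genes rose), and the group had a median difference of 1.20. Stmn1, stathmin, which takes microtubules apart and is abundant in dividing cells, had the smallest p of all members. It read 10.20, 9.37 and 9.84 in wild type and 11.60, 10.84 and 12.05 in knockout, with every knockout array well above every wild-type array. The rise was 1.69 ± 0.32, 3.24-fold (adjusted p = 0.0149), and dropping wild-type 3 took it to an adjusted p of 0.0515. Tacc3, which stabilises spindle fibres, read 6.48, 6.11 and 6.16 against 7.20, 6.65 and 7.55 and rose by 0.88 ± 0.22 (adjusted p = 0.0389), kept only without knockout 2. The spindle organisers Nusap1, Hmmr and Tpx2 differed by 1.75 ± 0.50, 1.31 ± 0.38 and 1.43 ± 0.46 (adjusted p = 0.0587, 0.0610 and 0.0861). Aurka, the centrosome kinase that TPX2 activates, differed by 1.16 ± 0.37 and Plk4, which starts centriole copying, by 0.73 ± 0.33 (adjusted p = 0.0851 and 0.20). The kinesin genes Kif2c, Kif4 and Kif22 differed by 1.46 ± 0.48, 1.20 ± 0.38 and 0.97 ± 0.35 (adjusted p = 0.0921, 0.0837 and 0.112). The Kif2c value comes from a set whose probes may cross-match other transcripts. Without such sets the brightest set left gave −0.09 (adjusted p = 0.614). Its other sets without that mark did not agree: a nearly as bright one differed by 1.0 ± 0.37, and a dimmer one by −0.24 ± 0.10. Kif11, the motor that pushes spindle poles apart, read 5.56, 5.31 and 5.54 against 5.77, 5.44 and 6.54 on its brightest probe set (difference 0.45 ± 0.25, adjusted p = 0.301), with knockout 3 apart from the rest.

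Cytokinesis genes had 1 call among 6 (7.65% of all genes rose) and a median difference of 1.08. Ect2, the exchange factor that switches on RhoA at the cleavage furrow, read 4.98, 3.74 and 4.57 in wild type and 6.24, 5.29 and 6.66 in knockout. It rose by 1.63 ± 0.40, 3.10-fold (adjusted p = 0.0358), and kept the call only without wild-type 1 or knockout 2. Racgap1 and Kif23, which together form the centralspindlin complex that recruits ECT2, differed by 1.17 ± 0.44 and 0.95 ± 0.35 (adjusted p = 0.125 and 0.119), and the midzone bundler Prc1 by 1.35 ± 0.48 (adjusted p = 0.113). Kif20a, a midzone kinesin, gave 4.34, 3.82 and 4.08 against 5.11, 4.35 and 5.75, so that knockout 2 barely cleared wild-type 1 (difference 0.99 ± 0.32, adjusted p = 0.0843). Anln, the furrow scaffold anillin, overlapped between groups at 7.14, 6.24 and 6.73 against 7.31, 6.78 and 7.75 (difference 0.57 ± 0.28, adjusted p = 0.240).

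Neither gene of the route out of mitosis passed (7.65% of all genes rose). Both were higher at an unadjusted p under 0.05 with limma, against 16.3% of all genes. Cdc20, which directs the anaphase-promoting complex to securin and cyclin B, read 7.74, 7.01 and 7.57 in wild type and 8.78, 7.65 and 9.76 in knockout (difference 1.29 ± 0.47, adjusted p = 0.119). Ube2c, the ubiquitin-conjugating enzyme of that complex, read 7.03, 6.18 and 6.91 against 8.04, 6.81 and 8.63 (difference 1.12 ± 0.43, adjusted p = 0.139). Knockout 1 and 3 lay above the wild-type arrays for both genes, and knockout 2 lay among them.

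The choice of probe set mattered, for members that passed as well as for those that did not. The 54 genes had 126 probe sets, of which 115 were higher in knockout by sign (47.9% of all probe sets were), 20 rose past the threshold (5.74% of all) and 0 fell. Of 72 probe sets that were not the brightest of their gene 7 rose, and they include sets for 4 genes whose brightest set did not pass: Hmmr (1.49 ± 0.38, adjusted p = 0.0404), Kif22 (1.36 ± 0.36, 0.0470), Pttg1 (0.68 ± 0.18, 0.0497) and Tpx2 (1.66 ± 0.40, 0.0360), all by limma. The genes of this paragraph were named after their values were seen. Of the 72, 10 were lower in knockout by sign. With each gene's probe sets averaged, 8 of the 13 called members no longer passed, and Mki67, Ndc80, Tacc3, Stmn1 and Ect2 did. The brightest sets of Stmn1, Cdca8, Incenp, Ncaph and Tacc3 have probes that can match several transcripts. Without such sets Incenp, Cdca8 and Ncaph no longer passed. Among called members, dimmer sets gave smaller differences for Stmn1 (0.75 ± 0.18, adjusted p = 0.0368), Spc25 (0.08 ± 0.12, 0.737), Cdca8 (1.10 ± 0.35, 0.0785) and Ncaph (1.14 ± 0.37, 0.0884). Another dimmer set for Cdca8 gave 1.57 ± 0.43, and those for Cdca5 and Ncapg gave 1.24 ± 0.35 and 1.26 ± 0.53. The 4 dimmer sets for Smc2 ran from 0.11 ± 0.15 to 1.03 ± 0.31. Of the 4 for Incenp 2 were below 0, at −0.05 ± 0.11 and −0.14 ± 0.11, and the others were at 0.81 ± 0.29 and 0.63 ± 0.17. The dimmer sets for Tacc3 both passed, at 1.5 ± 0.32 and 0.53 ± 0.13. Kif2c had dimmer sets at −0.24 ± 0.10, with every knockout array below wild type, at −0.09 ± 0.10 and at 1.0 ± 0.37. The other probe sets of Kif11 differed by 1.31 ± 0.50 and 1.19 ± 0.41 (adjusted p = 0.137 and 0.104) against 0.45 for the brightest. A dimmer set for Foxm1 differed by 1.10 ± 0.39 (adjusted p = 0.109) against 0.23, and a second set for Cdc25c by 1.57 ± 0.45 (adjusted p = 0.0605) against 0.85.

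Further genes of mitosis outside the list were higher in knockout too, by a smaller median. Of 58 measured genes 10 rose and 0 fell, against 7.65% and 8.51% of all genes. The median difference was 0.82, and 54 were above 0 by sign (48.4% of all genes). More of these genes were dim: a filter on dim probe sets left 35 of the 58, and 48 of the 54 members. The processing shrinks folds of dim probe sets, and its part in the smaller median was not tested. Knockout 3 was the highest array for 52 of the 58 (20.2% of all genes). Ncapd2, another condensin I subunit, rose by 1.69 ± 0.28 (adjusted p = 0.0105, and at most 0.0388 when any array was left out). Trip13, which recycles the checkpoint protein MAD2, was higher by 1.52 ± 0.28 (adjusted p = 0.0134), a call lost when wild-type 3 was dropped (0.0528). The spindle gene Spag5 and the kinesin gene Kif20b rose by 1.81 ± 0.40 and 1.57 ± 0.35 (adjusted p = 0.0263 and 0.0261), both kept only without wild-type 1 or knockout 2. The largest differences the other way were those of Zwint, a kinetochore gene, at −0.22 ± 0.10, and Kif14, at −0.05 ± 0.15 (adjusted p = 0.214 and 0.863), whose mean of 2.74 in wild type lay in the range of the Y-linked probe sets. Without knockout 2 the count of risen genes was 43 (9.44% of all genes), and without wild-type 3 it was 1 (3.63%).

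Mitotic machinery that cells keep through the whole cycle, such as core subunits of cohesin and of the anaphase-promoting complex, differed little in median. Of 39 measured genes 2 rose and 1 fell, against 7.65% and 8.51% of all genes, with a median difference of 0.12 and a range from −0.42 to 0.49. By sign 28 were higher (48.4% of all genes), and 16 had every knockout array above wild type (18.5%). The cohesin subunit Smc3 rose by 0.48 ± 0.12 and the anaphase-promoting subunit Anapc7 by 0.37 ± 0.09, while Clasp2, a microtubule stabiliser, fell by 0.37 ± 0.09 (adjusted p = 0.0342, 0.0356 and 0.0331). Each of these 3 calls held only without knockout 2 among the fits with 1 array left out. The cohesin subunit Smc1a differed by 0.37 ± 0.10 (adjusted p = 0.0520), and Tubg1, the tubulin that nucleates microtubules, by −0.42 ± 0.13 (adjusted p = 0.0794).

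The regulators that switch mitotic genes on or off had few calls. Of 21 measured genes 1 rose and 1 fell, against 7.65% and 8.51% of all genes, with a median difference of 0.20. By sign 15 were higher (48.4% of all genes), and 10 had every knockout array above wild type (18.5%). At an unadjusted p under 0.05 with limma, 7 were higher and 2 lower, against 16.3% of all genes higher and 3144 of 18193 lower. E2f3, an activator of cell cycle entry, read 7.70, 7.68 and 7.62 in wild type and 8.07, 8.24 and 8.46 in knockout, a rise of 0.59 ± 0.11 (adjusted p = 0.0160) that missed the threshold when wild-type 3 was dropped (0.0602). Cdkn1a, which encodes the CDK inhibitor p21, read 9.64, 9.82 and 9.09 against 8.51, 8.88 and 8.24 and fell by 0.98 ± 0.22 (adjusted p = 0.0268), a call kept only without wild-type 3 or knockout 2. Mybl2, which encodes B-MYB, and E2f7, a repressor of the late cycle, differed by 0.99 ± 0.30 and 0.93 ± 0.31 (adjusted p = 0.0706 and 0.0901). Rbl2, the DREAM pocket protein p130, differed by −0.22 ± 0.10 (adjusted p = 0.226).

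Markers of other cells moved between the genotypes beside the mitosis genes. Of 12 luminal epithelial markers 9 rose and 0 fell, and their mean was 8.65 to 9.17 on the wild-type arrays and 9.93 to 10.17 on the knockout arrays. Of 9 basal markers 8 rose, with means of 8.78 to 8.93 and 9.63 to 9.76. The mitosis mean ran from 7.0 to 8.58 over the knockout arrays, and both epithelial means spanned less there. Knockout 2 was the lowest knockout array for the mitosis, luminal and basal means (9.93 for luminal, 9.63 for basal). On wild-type arrays 1 to 3 the luminal mean read 9.17, 8.65 and 8.84, the same order as the mitosis mean. The basal mean read 8.93, 8.84 and 8.78 there, which is another order. Over all genes 7.65% rose and 8.51% fell. B cell markers fell in 8 of 8, with means of 8.15 to 8.46 in wild type and 7.32 to 7.69 in knockout. T cell markers fell in 4 of 7 (7.20 to 7.63 against 6.77 to 6.91) and germinal centre B cell markers in 1 of 5 (5.36 to 5.64 against 5.12 to 5.20). White adipocyte markers fell in 4 of 6 (11.40 to 11.63 against 10.65 to 11.04) brown adipocyte markers in 4 of 6 (8.28 to 9.48 against 6.98 to 7.07) and macrophage markers in 1 of 7. Endothelial markers had 1 rise and 2 falls among 7, and epidermal markers 1 rise among 5. Erythroid, fibroblast and skeletal muscle markers had 0 calls among 4, 6 and 11 with limma, where 0, 2 and 0 of them had an unadjusted p under 0.05. Over all genes 16.3% were higher and 3144 of 18193 lower at that cut. The skeletal muscle mean ran from 5.57 to 9.17 in wild type and from 5.08 to 7.20 in knockout. The part of these cell types in the mitosis values was not tested.

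**Figure D4:**
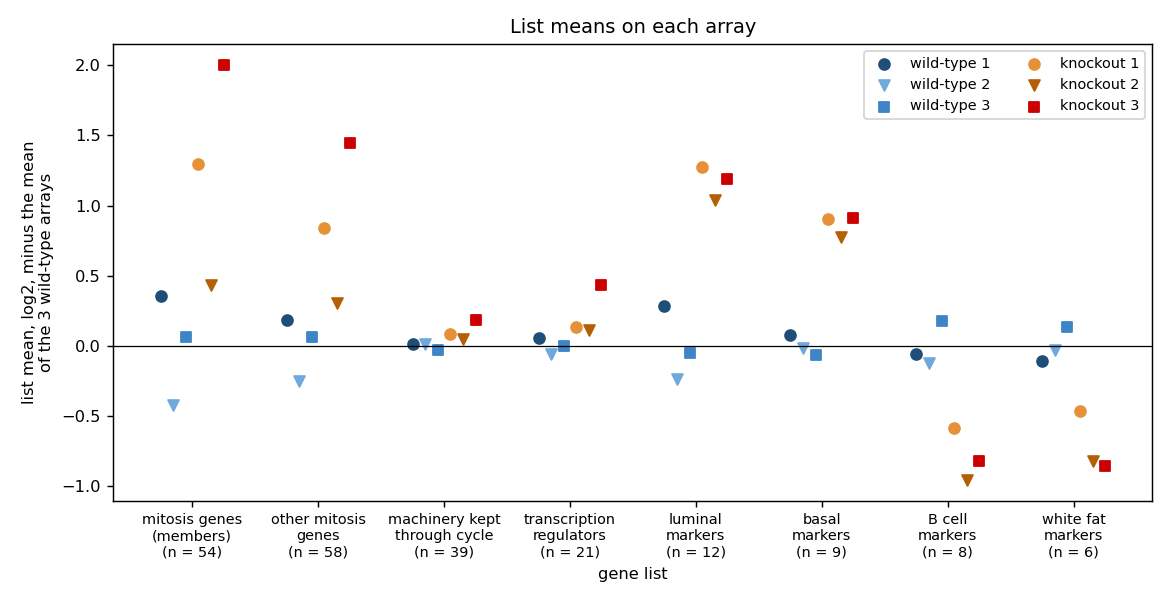
Each point is the mean of a gene list on 1 array, in log2 units minus the mean of the 3 wild-type arrays; n is the number of measured genes in the list. The mitosis genes spread from 7.0 to 8.58 in absolute mean over the knockout arrays, while the luminal and basal markers of the 3 knockout arrays lie close together above wild type and the B cell markers lie below it.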

How the data were processed

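The deposited values are 1 log2 value per probe set and array, made by the authors with RMA (background correction, normalization across arrays and summary of probes), per the submitters' processing notes; its version is not given in the sources used here. RMA shrinks folds of dim probe sets and takes out any shift shared by most transcripts. Of 45101 probe sets, 64 control sets were left out and 45037 were tested without a filter. Names come from the platform annotation, updated through Entrez identifiers with RefSeq GRCm38.p6: 34945 sets had 1 symbol, 932 had several and 9160 stay unnamed here. The genotypes were compared by limma (version 3.58.1, R 4.3.3, lmFit and eBayes, two-sided, 4 residual degrees of freedom, genotype as the only term), with Benjamini-Hochberg adjustment over all tested probe sets. Only 3 arrays a genotype limit the precision, and a two-sided exact permutation test of 3 against 3 cannot go below 0.1.

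Members and lists (3 pathways, 13 cell types) were chosen with earlier results of these data known. Array values are printed for Mki67, Top2a, Cdk1 and, in each role group, the 2 members with the smallest p, the one with the largest p and any below 0; other members are given by difference. Of each pathway list the 4 genes with the smallest p and the 2 largest differences against its direction are named. Printed promoters are those of members with array values, smallest p first. The fit was tested on simulated data. Alternatives are in the closing section. Same-numbered arrays of the 2 genotypes correlated at −0.054, 0.185 and −0.018 in their deviations from group means, so the numbers were not taken as pairs.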

Additional observations from a re-analysis of the deposited data

How the results depend on the processing

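No alternative gave a member past the threshold and lower. Quantile normalization again, cyclic loess and median centring gave 13, 14 and 13 higher members, with 53 of 54 above 0 each time. Without probe sets that can match several transcripts 11 of 52 members rose, but not all were the same genes. Incenp, Cdca8 and Ncaph lost their calls with limma (adjusted p = 0.117, 0.0792 and 0.0894), and Kif22 gained one (0.0473). Stmn1 kept its call at a difference of 0.75, down from 1.69. Shares of all genes in these fits are not given here. The filter on dim probe sets gave 19 of the 48 members left. The members' differences there equalled those of the main fit (Top2a at 1.56 in both). The adjustment ran over fewer probe sets, so the higher count is no larger rise. The share of all genes in that fit is not given here. This filter took out Ect2 and Ncapg, which had passed in the main fit, and Cdc25c, Nuf2, Kif11 and Kif20a, which had not. Members past the threshold numbered 5 with the trend and robust prior, 37 with array weights (9.51% of all genes; knockout 2 had the lowest weight, 0.549), 5 with each gene's probe sets averaged, 1 with the skeletal muscle covariate and 35 at an adjusted p under 0.10. The other mitosis genes numbered 5 with that prior, 28 with array weights, 3 with the muscle covariate and 28 at 0.10. With 1 array left out, members past the threshold ran from 0 (without wild-type 3, 3.63% of all genes) to 48 (without knockout 2, 9.44%), members whose groups do not overlap from 27 to 53 (44 without wild-type 1), and other mitosis genes from 1 to 43. The replicate number as a block gave 41 members and 32 other mitosis genes (7.81% of all genes); the arrays share only a number, and not every array correlated best with its own. The median difference lay between 0.93 and 1.76 in every setting. Signs turned without multi-transcript probe sets for Kif2c (−0.09, from 1.46) and Bub3 (−0.0585), and for Cdc25b, which ran from −0.1358 to 0.0849 over the fits with 1 array left out (0.0097 without wild-type 1, 0.0849 without knockout 2). For Kif2c this turn depends on the set chosen, as its other sets outside the multi-transcript ones differed by 1.0 and −0.24. Of 422 values of the 25 members with array values, 312 kept direction and side of the threshold, 70 dropped below it and 37 rose past it. The causes were not tested.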
